A study of Bos taurus with 34 samples.

Results

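The abundance of 8 genes of protein cleavage was followed in peripheral white blood cells (PWBC) of heifers: ADAM19 (ENSBTAG00000003836), ATG4B (ENSBTAG00000015401), DPEP2 (ENSBTAG00000039426), IMMP2L (ENSBTAG00000004398), ASRGL1 (ENSBTAG00000006910), SERPINE2 (ENSBTAG00000008717), UCHL3 (ENSBTAG00000008024) and USP42 (ENSBTAG00000000725). They were taken by identifier, and all 8 were among the 10942 genes tested, of 27570 in the table. They belong to a group of 38 proteolysis genes that the study drew from pairs with a negative correlation in the non-pregnant heifers, so the pairs behind that choice are described below without a test, and no correlation within the non-pregnant heifers alone is given. Blood was drawn at artificial insemination (AI) from crossbred Angus-Simmental heifers of breeding age, all of them synchronized for estrus by the same protocol and inseminated with semen of the same sire, and bulls were introduced later for natural breeding (NB). The outcome was recorded afterwards, and the groups are 6 heifers that conceived to AI (AI-preg), 6 that conceived to the bulls (NB-preg) and 5 that did not conceive (non-pregnant). The mRNA of each heifer made 1 library, so replicates are animals. Blood was drawn before any pregnancy, and the groups are outcomes and not treatments.

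Proteolysis is carried out by enzymes of several unrelated families and is held in check by inhibitors. At the cell surface, metalloproteases of the ADAM family cut other membrane proteins and release their outer part, and dipeptidases trim small peptides. Inside the cell, deubiquitinases remove ubiquitin from proteins and so act against degradation by the proteasome, ATG4 proteases prepare the ubiquitin-like proteins of autophagy, and a peptidase of the inner mitochondrial membrane removes sorting signals from imported proteins. White blood cells use such enzymes in migration, in the release of signals and in the turnover of proteins.

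Between 15353819 and 67192941 read pairs were counted on genes in AI-preg heifers, between 6402207 and 56867279 in NB-preg heifers, and between 4184999 and 20164587 in non-pregnant heifers. Totals over the genes tested were 2.64 times higher in the 12 pregnant heifers (geometric means, exact permutation test, two-sided p = 0.0218). Without heifer 101 the ratio of library totals was 2.14 (exact permutation test, two-sided p = 0.0797), which ends that call. When the libraries were clustered, 4 heifers formed the smaller of 2 branches, and they came from all groups: heifer 114 (AI-preg), heifers 116 and 121 (NB-preg) and heifer 115 (non-pregnant). Several of the 8 genes had their extreme values in these heifers, and results are therefore also given without them. This set was chosen after seeing the data. Medians of several marker genes of blood cells differed between the groups as well, with overlapping ranges (values only, not tested). Only markers with a symbol were read. Symbols favour genes in the results of the study, so these markers were not chosen independently of these heifers. The summed abundance of the neutrophil markers CXCR2, TREM1, CSF3R and S100A12 (4 of 8 with a symbol) ranged from 76.7 to 4132 counts scaled to a library total of 1000000 (CPM) in AI-preg, from 220.1 to 2865 CPM in NB-preg and from 167.3 to 12979 CPM in non-pregnant heifers, with medians of 1005, 946.4 and 11391 CPM. Most of this sum was S100A12, with medians of 974.7, 850.5 and 10637 CPM in the same order. The mean log2(CPM + 1) of the 4 genes was 8.63, 8.58 and 9.08 in non-pregnant heifers 94, 107 and 113. It was 4.77 and 4.39 in heifers 101 and 115. The T cell kinase gene LCK was the 1 of 7 T cell markers that had a symbol. Its medians were 80.0, 56.8 and 288.0 CPM in the groups in this order. It ranged from 7.04 to 247.1 CPM in AI-preg, from 37.1 to 215.7 CPM in NB-preg and from 3.32 to 400.5 CPM in non-pregnant heifers. The platelet markers went opposite ways, with medians of 831.1, 371.2 and 85.0 CPM for TUBB1 and of 7.93, 3.40 and 41.4 CPM for ITGA2B. In non-pregnant heifers TUBB1 ranged from 0.0646 to 1530 CPM and ITGA2B from 0.123 to 64.3 CPM. Medians of the NK cell gene NKG7 were 18.3, 21.4 and 20.4 CPM. Those of the eosinophil receptor gene IL5RA were 10.5, 4.67 and 21.2 CPM. Non-pregnant heifers ranged from 2.83 to 69.6 CPM for NKG7 and from 12.9 to 36.8 CPM for IL5RA. In RNA of mixed cells, fewer cells of a type and less RNA per cell cannot be told apart.

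**Figure D1:**
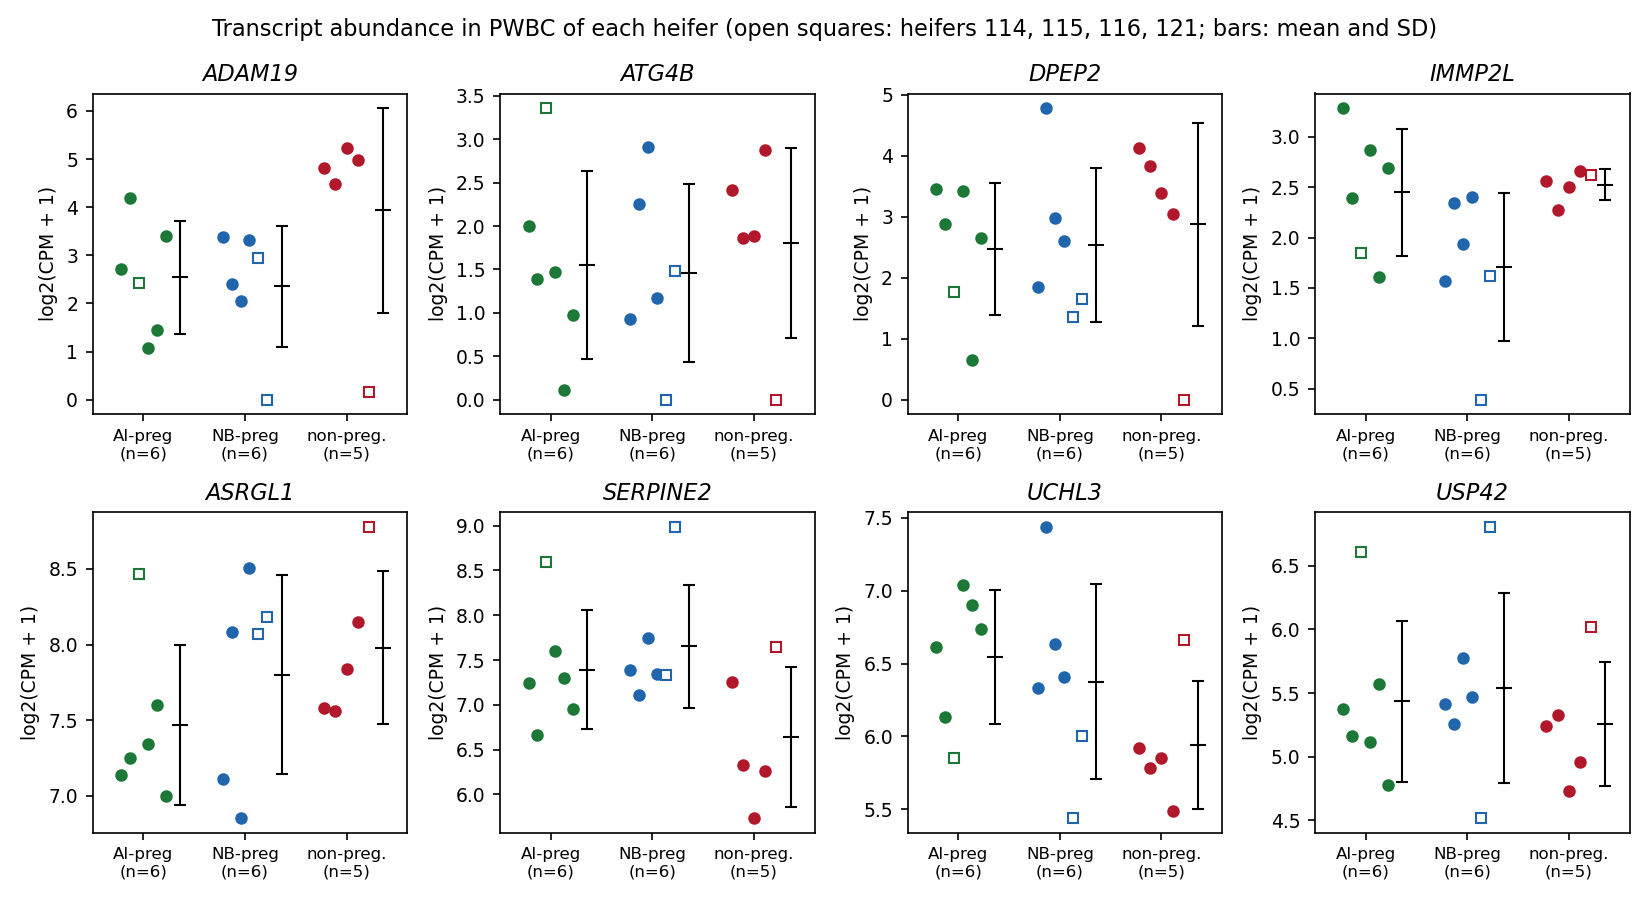
Abundance of the 8 genes in PWBC on the log2(CPM + 1) scale, 1 panel per gene and 1 point per heifer, by group. Open squares are heifers 114, 115, 116 and 121, and bars are the mean and SD; 4 of 5 non-pregnant heifers lie above all 12 pregnant heifers for ADAM19.

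Among the surface enzymes, ADAM19 showed the widest split between outcomes. It encodes a membrane-anchored metalloprotease that sheds growth factors such as neuregulins. In non-pregnant heifers 94, 101, 107, 113 and 115 its abundance was 27.2, 21.3, 36.4, 30.7 and 0.123 CPM. AI-preg heifers ranged from 1.10 to 17.2 CPM with a median of 4.99, and NB-preg heifers from 0 to 9.48 CPM with a median of 5.49. Thus 4 of 5 non-pregnant heifers lay above every pregnant heifer, whereas heifer 115 had a single count. The lowest pregnant value was that of heifer 121, where 0 counts allow an abundance of up to 0.200 CPM (3 counts of the library, counting error only).

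DPEP2, the other surface enzyme, is a dipeptidase that converts leukotriene D4 to leukotriene E4. Its abundance was 16.6, 13.2, 9.45, 7.22 and 0 CPM in non-pregnant heifers 94, 101, 107, 113 and 115, where 0 counts allow up to 0.369 CPM. AI-preg heifers had 0.563 to 9.94 CPM (median 5.83) and NB-preg heifers 1.56 to 26.6 CPM (median 3.84). The groups overlapped throughout, and the highest value of all belonged to the NB-preg heifer 103.

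ATG4B and IMMP2L act inside the cell on very small sets of proteins and were scarce in every library. ATG4B, a cysteine protease that trims the ATG8 proteins before they are joined to autophagic membranes, had 4.33, 2.64, 2.70, 6.37 and 0 CPM in non-pregnant heifers 94, 101, 107, 113 and 115. It ranged from 0.0805 to 9.26 CPM in AI-preg heifers (median 1.69) and from 0 to 6.52 CPM in NB-preg heifers (median 1.53). It reached 2 CPM in 8 of 17 libraries and had no count in heifers 115 and 116. IMMP2L, a catalytic subunit of the inner membrane peptidase of mitochondria, was even in non-pregnant heifers, with 4.91, 3.84, 4.66, 5.33 and 5.16 CPM in the same order. AI-preg heifers spread on both sides of these values, from 2.05 to 8.74 CPM (median 4.85), and NB-preg heifers had 0.313 to 4.30 CPM (median 2.45). In total 6 of 12 pregnant heifers lay below the lowest non-pregnant value and 3 lay above the highest. These 2 genes rest on between 0 and 321 counts per library.

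ASRGL1, which encodes an asparaginase that also cleaves isoaspartyl peptides, was abundant in every library. It had 189.9, 187.7, 227.3, 282.4 and 438.6 CPM in non-pregnant heifers 94, 101, 107, 113 and 115. AI-preg heifers ranged from 127.1 to 352.8 CPM (median 156.3) and NB-preg heifers from 114.5 to 362.4 CPM (median 268.7). Here 6 of 12 pregnant heifers lay below all non-pregnant heifers, and heifer 115 was the highest of all 17.

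SERPINE2, also called protease nexin-1, is the inhibitor among the 8 genes and blocks thrombin and urokinase. Its abundance in non-pregnant heifers 94, 101, 107, 113 and 115 was 152.1, 79.6, 52.3, 75.7 and 198.6 CPM. In AI-preg heifers it ranged from 100.6 to 384.9 CPM (median 153.4), and in NB-preg heifers from 136.9 to 507.1 CPM (median 164.3). The order was opposite to that of ADAM19: 3 of 5 non-pregnant heifers lay below every pregnant heifer, and 3 of 12 pregnant heifers lay above every non-pregnant heifer. The highest values were those of heifers 121 and 114.

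The deubiquitinases were UCHL3, a small hydrolase that frees ubiquitin and the related protein NEDD8 from short extensions, and USP42, a ubiquitin-specific protease with p53 among its known substrates. UCHL3 had 59.5, 54.2, 56.8, 43.8 and 100.4 CPM in non-pregnant heifers 94, 101, 107, 113 and 115. AI-preg heifers ranged from 56.9 to 130.8 CPM (median 101.3) and NB-preg heifers from 42.4 to 172.7 CPM (median 81.8). Heifer 115 was again apart from its group, and 4 of 12 pregnant heifers lay above all non-pregnant heifers. USP42 had 36.9, 39.1, 25.5, 30.1 and 63.9 CPM in the same non-pregnant heifers. It ranged from 26.4 to 96.3 CPM in AI-preg heifers (median 37.7) and from 21.9 to 111.0 CPM in NB-preg heifers (median 42.4), so the groups overlapped, and the top 3 heifers were 121, 114 and 115.

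The first comparison asked whether the abundance of these genes at AI differed between heifers that later became pregnant and those that did not. With edgeR's quasi-likelihood test and Benjamini-Hochberg adjustment over all genes, 0 of 8 genes passed an adjusted p of 0.05 between all pregnant and non-pregnant heifers. The background was 0% of 10942 genes at that threshold, and 9.01% at an unadjusted p under 0.05. By other tests, DESeq2 called 43 genes and edgeR's likelihood ratio test called 18 genes, with none of the 8 among them. At an unadjusted p under 0.05 there were 2 of the 8 genes, ADAM19 and SERPINE2. The median difference of the 8 genes was -0.32 on the log2 scale (pregnant minus non-pregnant), with 3 genes higher and 5 lower, against a median of 0.11 over all genes.

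The fitted abundance of ADAM19 was 3.86-fold lower in pregnant heifers, which did not pass the adjusted threshold (log2 fold change -1.95, SE 0.83, unadjusted p = 0.0294, edgeR adjusted p = 0.532). The difference was -1.81 (SE 1.01) for AI-preg and -2.09 (SE 1.02) for NB-preg heifers, both against the same non-pregnant heifers. Without heifers 114, 115, 116 and 121 it was -2.10 (SE 0.58, unadjusted p = 0.00278, edgeR adjusted p = 0.140). These heifers were chosen after seeing the data, and 115 and 121 are the lowest of their groups for ADAM19. The lower p of that fit is therefore not independent of the choice. Adjusted p ranged from 0.140 to 0.996 when heifers were left out and from 0.157 to 0.901 in other settings. The unadjusted p was 0.075 without heifer 107 (edgeR). With the neutrophil score as a covariate the difference was -1.31 (unadjusted p = 0.305, edgeR). The part of neutrophil number in the difference was not tested further.

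The fitted abundance of SERPINE2 was 1.82-fold higher in pregnant heifers, which also missed it (log2 fold change 0.87, SE 0.41, unadjusted p = 0.0474, edgeR adjusted p = 0.549). The difference was 0.73 (SE 0.45) in AI-preg and 1.01 (SE 0.45) in NB-preg heifers. With 1 heifer left out in turn, these ranged from 0.37 (without heifer 114) to 1.04 (without heifer 115) and from 0.59 (without heifer 121) to 1.32 (without heifer 115). The difference of all pregnant heifers came to 0.80 (SE 0.32) without heifers 114, 115, 116 and 121. With 1 heifer left out in turn, it ranged from 0.66 (without heifer 121) to 1.18 (without heifer 115). The unadjusted p was 0.13 without heifer 107 and 0.278 with DESeq2 size factors in edgeR. UCHL3 had a difference of 0.57 (SE 0.34, edgeR adjusted p = 0.595), which was 0.99 (SE 0.30, unadjusted p = 0.00529, edgeR adjusted p = 0.169) without the same 4 heifers, but 0.36 (SE 0.36) with TMM factors and 0.19 (SE 0.36, unadjusted p = 0.6) with DESeq2 size factors in edgeR. The same 4 heifers were chosen after seeing the data. For UCHL3 they include the highest non-pregnant value and the lowest values of AI-preg and NB-preg heifers. Neither SERPINE2 nor UCHL3 passed the adjusted threshold in any of these fits.

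For the remaining genes the differences were at most about the size of their standard errors in this fit. Between all pregnant and non-pregnant heifers the log2 fold change was -0.33 (SE 0.97) for ATG4B, -0.51 (SE 0.83) for DPEP2, -0.42 (SE 0.56) for IMMP2L, -0.32 (SE 0.32) for ASRGL1 and 0.32 (SE 0.40) for USP42. The directions for ATG4B and DPEP2 turned when the neutrophil score was a covariate. With DESeq2 size factors in edgeR the values were -0.77 (SE 0.51) for IMMP2L, -0.65 (SE 0.40) for ASRGL1 and 0.07 (SE 0.48) for USP42. With 1 heifer left out in turn, ATG4B ranged from -0.77 (without heifer 114) to 0.09 (without heifer 113), DPEP2 from -1.02 (without heifer 103) to -0.19 (without heifer 94), IMMP2L from -0.54 (without heifer 92) to -0.31 (without heifer 116), ASRGL1 from -0.46 (without heifer 114) to -0.06 (without heifer 115) and USP42 from 0.13 (without heifer 121) to 0.57 (without heifer 115). Without heifers 114, 115, 116 and 121 the values were -0.91 (SE 0.73) for ATG4B, -0.52 (SE 0.67) for DPEP2, -0.16 (SE 0.48) for IMMP2L, -0.26 (SE 0.31) for ASRGL1 and 0.28 (SE 0.28) for USP42.

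**Figure D2:**
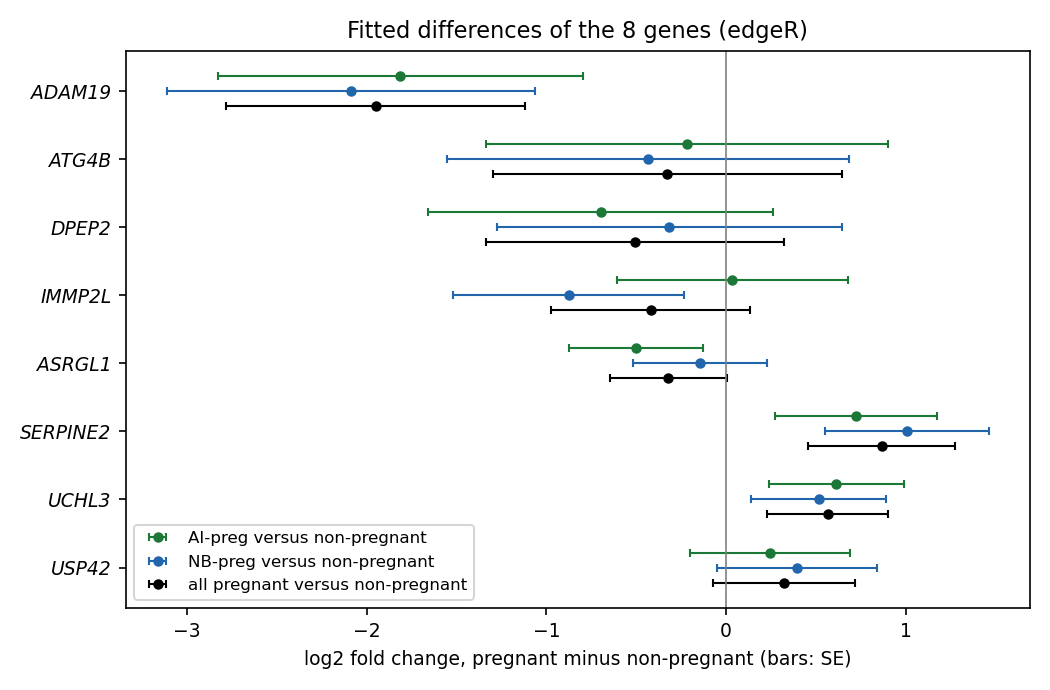
Fitted log2 fold changes of the 8 genes (pregnant minus non-pregnant, horizontal axis) with SE for AI-preg, NB-preg and all pregnant heifers against the same 5 non-pregnant heifers. ADAM19 lies farthest below 0 and SERPINE2 farthest above 0.

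Each pregnant group was also set against the non-pregnant heifers. For AI-preg heifers, 0 of 8 genes passed the adjusted threshold (background 0%) and 0 of 8 had an unadjusted p under 0.05, against 5.35% of all genes. For NB-preg heifers, 0 of 8 passed the adjusted threshold (background 0%), and 1 of 8 had an unadjusted p under 0.05, against 6.14% of all genes. That gene was SERPINE2 (edgeR's quasi-likelihood test, unadjusted p = 0.0385, adjusted p = 0.778). Without heifer 121 its unadjusted p was 0.17, and with DESeq2 size factors in edgeR it was 0.165. DESeq2 called 5 and 11 genes in these comparisons and the likelihood ratio test 0 in both. IMMP2L was the gene whose differences lay farthest apart, at 0.04 (SE 0.64) for AI-preg and -0.88 (SE 0.64) for NB-preg heifers.

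The pregnant groups were compared with each other to see whether early and later conception differed. None of the 8 genes passed an adjusted p of 0.05 (0 of 8, background 0%) or an unadjusted p of 0.05 (0 of 8, background 0.146%), and neither DESeq2 nor the likelihood ratio test called any gene. IMMP2L had the largest difference of the 8 genes in this fit, 0.91 on the log2 scale (AI-preg minus NB-preg, SE 0.62, unadjusted p = 0.155, edgeR adjusted p = 1.00).

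The 8 genes differed in how much they varied among heifers of a group. On the log2(CPM + 1) scale the pooled SD within groups was 1.53 for ADAM19, 1.33 for DPEP2 and 1.07 for ATG4B, against a median of 0.95 over all genes. It was between 0.54 and 0.71 for UCHL3, ASRGL1, IMMP2L, USP42 and SERPINE2. ADAM19 was more variable than 91.1% of all genes and UCHL3 than 9.93%. Of the 3 variable genes, each had a library with no count.

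The next question was whether the genes varied together across heifers. Of 28 pairs, 2 passed an adjusted p of 0.05 for Pearson's r over 17 heifers, and both held SERPINE2. How often other pairs among all genes tested reach such an r was not counted. The relations are therefore not shown to be particular to these genes. With 1 heifer left out in turn, the number of pairs that passed ranged from 2 to 5. ADAM19 and SERPINE2 were opposed (r = -0.775, permutation p = 0.00021, adjusted p = 0.0035; rho = -0.792, permutation p = 0.00033, adjusted p = 0.00924). The relation was -0.719 without heifers 115 and 121, which lay farthest from the median of ADAM19, and -0.774 without heifers 114, 115, 116 and 121. Within groups r was -0.495 in AI-preg and -0.911 in NB-preg heifers, with 6 heifers each. SERPINE2 and USP42 varied together (r = 0.803, permutation p = 0.00025, adjusted p = 0.0035; rho = 0.721, permutation p = 0.00151, adjusted p = 0.0211). This r was 0.675 without heifers 107 and 121, 0.687 without the 4 heifers of the smaller branch, 0.860 in AI-preg and 0.876 in NB-preg heifers.

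**Figure D3:**
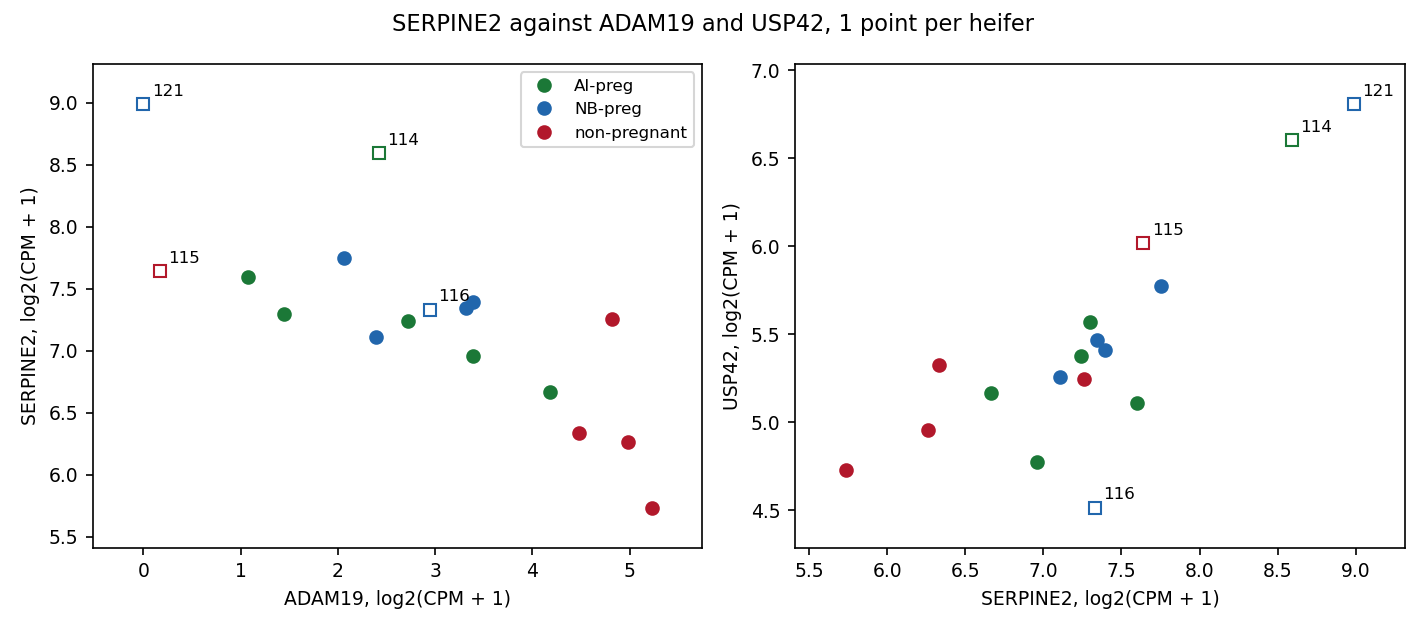
SERPINE2 against ADAM19 (left) and USP42 against SERPINE2 (right) on log2(CPM + 1) scales, 1 point per heifer coloured by group, with heifers 114, 115, 116 and 121 as open squares. SERPINE2 falls as ADAM19 rises (r = -0.775) and USP42 rises with SERPINE2 (r = 0.803) over 17 heifers.

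Further pairs were weaker or changed with the heifers used. ATG4B and DPEP2 had r = 0.623 (permutation p = 0.0078, adjusted p = 0.0546; rho = 0.611, adjusted p = 0.0723). The value was 0.781 without heifers 114 and 116, 0.264 in AI-preg and 0.697 in NB-preg heifers. ADAM19 and USP42 had r = -0.628 (permutation p = 0.00638, adjusted p = 0.0546; rho = -0.637, adjusted p = 0.0683), which was -0.386 without heifers 115 and 121, -0.222 in AI-preg and -0.818 in NB-preg heifers. ADAM19 and UCHL3 had r = -0.509 (permutation p = 0.0381, adjusted p = 0.178; rho = -0.586, adjusted p = 0.0869) over all heifers and -0.873 over the 13 heifers outside the smaller branch. Within groups it was -0.573 in AI-preg heifers and 0.0651 in NB-preg heifers, so the relation did not hold in the latter. ASRGL1 and IMMP2L took part in no pair past the adjusted threshold.

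**Figure D4:**
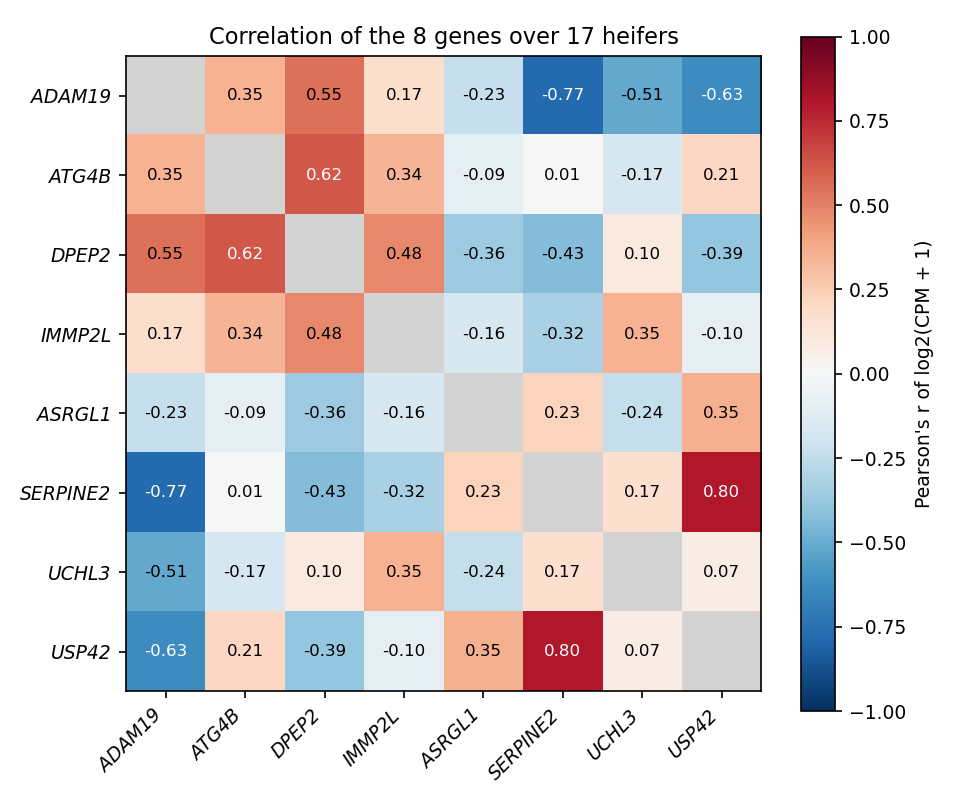
Pearson's r of log2(CPM + 1) for the 28 pairs of the 8 genes over 17 heifers, on a colour scale from -1 to 1. The largest values are those of SERPINE2 with USP42 (0.80) and with ADAM19 (-0.77).

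Abundance was also related to the blood cell markers, with 16 relations of the 8 genes to the neutrophil score (the mean log2 abundance of its 4 genes) and to LCK. Relations with LCK were strong for ATG4B (r = 0.825, permutation p = 3e-05, adjusted p = 0.00048; rho = 0.823, adjusted p = 0.00128) and for DPEP2 (r = 0.787, permutation p = 0.00015, adjusted p = 0.0012; rho = 0.674, adjusted p = 0.03). For ATG4B r was 0.732 without heifers 115 and 119, 0.811 in AI-preg and 0.877 in NB-preg heifers. For DPEP2 it was 0.557 without the same heifers, 0.737 in AI-preg and 0.859 in NB-preg heifers. Without the 4 heifers of the smaller branch the values were 0.887 and 0.744. The neutrophil score was related to ATG4B with r = 0.560 and to ADAM19 with r = 0.556 (adjusted p = 0.0817 for each, permutation test). The values of rho were 0.595 (adjusted p = 0.0738) and 0.370 (adjusted p = 0.252), and without the 4 heifers of the smaller branch r was 0.729 and 0.619. Within groups the relation of ATG4B was 0.937 in AI-preg and -0.125 in NB-preg heifers, and that of ADAM19 was -0.0491 and 0.203, so neither held in both groups. UCHL3 with the neutrophil score had r = -0.513, and ADAM19 with LCK had r = 0.523 (adjusted p = 0.0982 for each, permutation test). In AI-preg and NB-preg heifers r was -0.472 and 0.0293 for the former, and 0.128 and -0.0888 for the latter. LCK is a single gene and stands for T cells only as far as that gene does. The adjustment covers the 16 relations only. How many of all genes tested have such an r with LCK was not counted, so these relations are not shown to be particular to ATG4B and DPEP2.

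**Figure D5:**
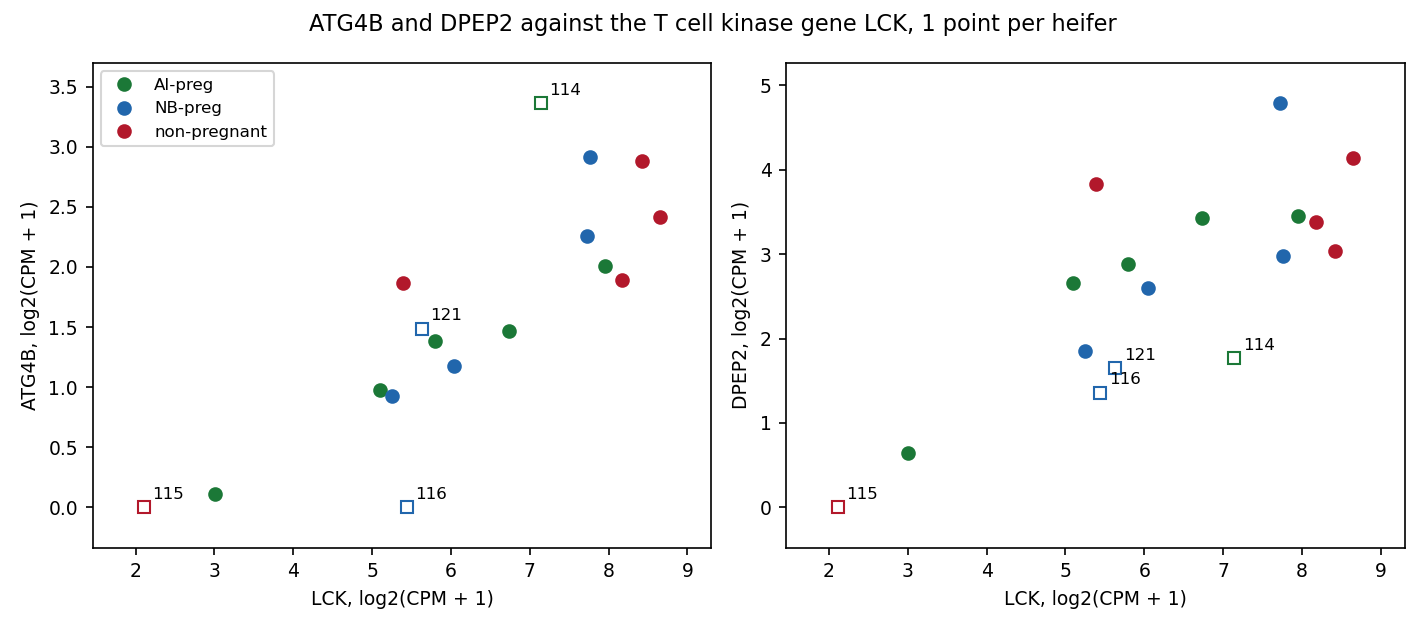
ATG4B (left) and DPEP2 (right) against LCK on log2(CPM + 1) scales, 1 point per heifer coloured by group, with heifers 114, 115, 116 and 121 as open squares. Both genes rise with LCK over 17 heifers (r = 0.825 and r = 0.787).

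Each gene was also placed among all 10942 genes by the likeness of its pattern (r over 17 heifers, as a description). The gene most like ADAM19 was ENSBTAG00000021091 (r = 0.957), and the most like one with a symbol was FOSL2 (r = 0.931). DPEP2 had the most close neighbours, with 62 genes over r = 0.9, led by ENSBTAG00000000621 (r = 0.950), against 24 for ADAM19, 8 for ATG4B (led by ENSBTAG00000000439, r = 0.957), 6 for SERPINE2 (led by ENSBTAG00000007485, r = 0.924) and 2 for USP42 (led by ENSBTAG00000019645, r = 0.935). No gene reached 0.9 with IMMP2L, ASRGL1 or UCHL3. For these, the most like genes were ENSBTAG00000009796 (r = 0.822), ENSBTAG00000048980 (r = 0.838) and ENSBTAG00000025191 (r = 0.878). The most opposed gene was ENSBTAG00000016266 for ADAM19 (r = -0.942), ENSBTAG00000049397 for ATG4B (r = -0.937), ENSBTAG00000048960 for DPEP2 (r = -0.935) and ENSBTAG00000049806 for SERPINE2 (r = -0.892). For USP42, ASRGL1, UCHL3 and IMMP2L the most opposed genes were ENSBTAG00000012668 (r = -0.856), ENSBTAG00000018361 (r = -0.811), ENSBTAG00000013861 (r = -0.773) and ENSBTAG00000013922 (r = -0.743).

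The pairs by which the study chose these genes, 1 for each of the 8, had an r below 0 over all 17 heifers. The partner genes have no symbol here. The value of r over all heifers was -0.504 for ADAM19 with ENSBTAG00000000369, -0.456 for ASRGL1 with ENSBTAG00000020030, -0.454 for ATG4B with ENSBTAG00000017141 and -0.450 for DPEP2 with ENSBTAG00000009904. It was -0.431 for SERPINE2 with ENSBTAG00000050011, -0.332 for USP42 with ENSBTAG00000007708, -0.317 for UCHL3 with ENSBTAG00000011243 and -0.0667 for IMMP2L with ENSBTAG00000007837. The choice asked for a strongly negative r in the non-pregnant heifers and for values near 0 in each pregnant group. A negative r over all 17 heifers is therefore not independent of the choice. Here r ranged from -0.0958 to 0.0958 in AI-preg heifers. In NB-preg heifers the lowest was -0.0964 (USP42) and the highest 0.113 (ATG4B). No test is given for these pairs.

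Other genes of the same pathways were read only where a symbol was given, and such symbols favour genes in the results of the study. Of 71 deubiquitinases listed, 20 were tested, and none passed the adjusted threshold between all pregnant and non-pregnant heifers (0 of 20, background 0%). At an unadjusted p under 0.05 there was 1 of 20, against 9.01% of all genes. Of the 20, 13 had a difference above 0 and 7 below 0 (pregnant minus non-pregnant), with a median log2 fold change of 0.28 against 0.11 over all genes. COPS5, the catalytic subunit of the COP9 signalosome, which removes NEDD8, ranged from 92.7 to 222.6 CPM in AI-preg, from 92.3 to 228.7 CPM in NB-preg and from 56.2 to 96.9 CPM in non-pregnant heifers. Its log2 fold change was 0.81 (SE 0.30, unadjusted p = 0.0147, edgeR adjusted p = 0.515). MINDY1, which cuts ubiquitin chains, had -1.23 (SE 0.66), and USP37 had 0.71 (SE 0.40).

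For autophagy, 3 of 15 listed genes of ATG8 conjugation were tested. MAP1LC3A, an ATG8 protein that ATG4 proteases process, had medians of 1.21 CPM in AI-preg, 0.323 CPM in NB-preg and 7.23 CPM in non-pregnant heifers. Its ranges overlapped, at 0.201 to 5.28, 0.149 to 5.72 and 0.240 to 23.3 CPM in the same order. The log2 fold change of MAP1LC3A was -2.21 (SE 0.94, unadjusted p = 0.0299, edgeR adjusted p = 0.532). The relatives of ATG4B had smaller differences, at 0.54 (SE 0.58) for ATG4A and -0.07 (SE 0.68) for ATG4D. Of 23 listed ADAM and matrix metalloproteases and inhibitors, 4 were tested. ADAM10 had a difference of 0.51 (SE 0.38), ADAM9 of 0.63 (SE 0.59) and ADAM8 of -1.22 (SE 1.16), all of them less far from 0 than that of ADAM19.

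Of 16 mitochondrial proteases, 4 were tested, and PMPCB, a subunit of the peptidase that removes targeting signals in the matrix, had a log2 fold change of 0.83 (SE 0.33, unadjusted p = 0.0209, edgeR adjusted p = 0.532). CLPX (0.35, SE 0.31) and MIPEP (-0.30, SE 0.66) differed by about or less than their standard errors. Of 12 dipeptidases, asparaginases and leukotriene enzymes, 2 were tested. ALOX5AP, which delivers arachidonic acid for leukotriene synthesis, had medians of 13.5 CPM in AI-preg, 11.7 CPM in NB-preg and 98.6 CPM in non-pregnant heifers. Its ranges overlapped, at 0.965 to 38.2, 2.50 to 84.0 and 9.83 to 144.7 CPM in the same order. The log2 fold change was -1.94 for ALOX5AP (SE 0.76, unadjusted p = 0.0192, edgeR adjusted p = 0.532) and 0.49 (SE 0.45) for TASP1.

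Among other serpins, SERPINB1, an inhibitor of neutrophil elastase, had medians of 63.2 CPM in AI-preg, 69.6 CPM in NB-preg and 328.7 CPM in non-pregnant heifers. Its ranges overlapped, at 30.8 to 154.1, 35.8 to 215.3 and 42.8 to 405.0 CPM in the same order. The log2 fold change of SERPINB1 was -1.46 (SE 0.51, unadjusted p = 0.00974, edgeR adjusted p = 0.506), opposite in sign to that of SERPINE2. The 30 other proteolysis genes chosen by the study on these heifers had a median difference of -0.55, with 27 of them below 0. None passed the adjusted threshold (background 0%) and 5 of 30 had an unadjusted p under 0.05, against 9.01% of all genes. Among them UQCRC1, a core subunit of respiratory complex III, had -1.94 (SE 0.74, unadjusted p = 0.0159, edgeR adjusted p = 0.525).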

How the data were processed

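The deposited values are counts of read pairs per gene in PWBC and of single reads in plasma, which the authors made by alignment to ARS-UCD1.2 (HISAT2 2.1.0) and summation per gene (featureCounts 1.6.0, per the labels), after removing multi-mapped reads, reads with 5 or more mismatches and duplicates. PWBC pairs were counted by strand. The methods text and the code of the study name different versions of the Ensembl annotation. No value was normalized or filtered by the authors, apart from 1 non-pregnant library left out for low yield. Genes with near-identical copies keep only their unshared reads.

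Genes with 2 CPM or more in 5 or more libraries were kept, without selection of protein-coding genes. CPM used the total over kept genes. Differences were tested with edgeR 4.0.16 (quasi-likelihood, robust, 1 fit of 3 groups, no scaling factor) and Benjamini-Hochberg adjustment in R 4.3.3. Standard errors are the coefficient over the root of F. DESeq2 1.42.0, edgeR's likelihood ratio test, TMM factors, DESeq2 size factors, other filters, another library size, a neutrophil covariate and each heifer left out were alternatives. Correlations used log2(CPM + 1) and 100000 permutations (Python 3.11.15, scipy 1.17.1, numpy 2.4.6, pandas 2.3.3), and the smallest p they can give is 1e-05. Libraries were clustered by average linkage. The fits and the correlations were tested on simulated data.

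The 8 genes and the pathway and marker lists were chosen with earlier results of these data known. Named besides the 8 genes are, for each, the genes with the highest and lowest r, the study's partner genes, the marker genes, and the 3 genes of each list with the smallest p between all pregnant and non-pregnant heifers. Symbols came from supplementary tables, which name 2335 identifiers, of which 2228 were tested. FOSL2 was named as the closest gene with a symbol. Gene lengths were not used, so levels are not compared between genes, and sequences and positions were not analysed here. Intervals and limits on counts of 0 cover counting error only. Markers of NK cells, eosinophils and platelets with a symbol numbered 1, 1 and 2, and those of monocytes and red cells none. Some genes of these lists are not reported here.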

Additional observations from a re-analysis of the deposited data

Results flagged for a closer look

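In 3 cases a value stood far from the other heifers of their group (a gap to the nearest heifer above the 95% critical value of Dixon's test), among 24 combinations of gene and group looked at, where chance gives about 1.2. Of these, 2 belonged to non-pregnant heifer 115: ADAM19 at 0.167 on the log2(CPM + 1) scale, where the other 4 heifers had 21.3 CPM or more, and DPEP2 at 0. The other was SERPINE2 in NB-preg heifer 121, at 8.99 on that scale or 507.1 CPM.

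Plasma small RNA, which the comparisons above did not use, held a few reads on 6 of the 8 genes. The highest count in a library was 7 for ADAM19 in heifer 111, 4 for ATG4B in heifer 121, 14 for ASRGL1 in heifer 103, 20 for SERPINE2 and 9 for USP42, both in heifer 93, all above the floor of 3 counts used for plasma. UCHL3 had at most 3 counts, and DPEP2 and IMMP2L had 0 in all 17 libraries of 1073910 to 17024777 reads. Sums over the 17 libraries were 56 for ASRGL1, 40 for SERPINE2, 17 for USP42, 13 for ATG4B and 10 for ADAM19.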

How the results depend on the processing

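None of the 8 genes passed an adjusted p of 0.05 in any setting tried. Over all genes, DESeq2 called 5, 11 and 43 genes for AI-preg, NB-preg and all pregnant against non-pregnant heifers, the likelihood ratio test called 18 and no filter 3 for all pregnant, and without heifers 114, 115, 116 and 121 (chosen after seeing the data) 16 were called for AI-preg and 52 for all pregnant. Scaling moved the median of all genes between all pregnant and non-pregnant heifers from 0.11 to 0.03 with TMM factors and to -0.14 with DESeq2 size factors. For AI-preg against non-pregnant heifers, IMMP2L turned to -0.19 with TMM factors, -0.37 with DESeq2 size factors and -0.36 with DESeq2, and USP42 to -0.12 with both of the latter. With the neutrophil score as a covariate, ATG4B turned to 1.28, 1.40 and 1.34 and DPEP2 to 0.33, 0.41 and 0.37 for AI-preg, NB-preg and all pregnant against non-pregnant heifers, and ATG4B to -0.12 for AI-preg against NB-preg. Without heifers 114, 115, 116 and 121, ATG4B turned to -1.05 and UCHL3 to -0.060 for AI-preg against NB-preg.

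With 1 heifer left out in turn, the AI-preg difference from non-pregnant heifers ranged from -0.21 to 0.19 for IMMP2L, -0.10 to 0.49 for USP42 and -1.11 to 0.19 for ATG4B. The NB-preg difference ranged from -0.30 to 0.11 for ASRGL1 and -1.34 to 0.0045 for DPEP2, and that of all pregnant heifers from -0.77 to 0.085 for ATG4B. AI-preg against NB-preg ranged from -0.29 to 0.51 for ADAM19, -0.68 to 0.84 for ATG4B, -0.0476 to 0.39 for UCHL3, -0.61 to 0.64 for DPEP2, -0.63 to 0.14 for SERPINE2 and -0.50 to 0.23 for USP42. Pairs past the adjusted threshold numbered 2 in the report, 4 with a pseudocount of 0.5, 5 with TMM factors, and 2 to 5 with 1 heifer left out (4 without heifer 114, 5 without heifer 117). For library totals, the ratio of pregnant to non-pregnant heifers ranged from 2.14 to 3.17, with 2.14 (exact permutation p = 0.0797) without heifer 101. The cause was not tested for any of these. No paired analysis was possible because each heifer belongs to 1 group and the groups share no heifer numbers. ATG4B had no count in heifers 115 and 116, so its values there are limited by depth.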
